A study of Macaca mulatta with 2 samples.

Results

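Genes of microglia and macrophages were examined in bulk RNA-seq of macaque optic nerve. Of 39 genes chosen by name, 37 were among the 16684 genes of the deposited table, whereas *CYBA* and *APBB1IP* were not listed under these symbols. All 37 were above 0 in at least 1 library, as were 14693 genes in all. The genes were picked as known markers of these cells, with earlier results of the same data in view, so their levels are a description and were not tested. The samples were 2 wild-type, untreated optic nerves of *Macaca mulatta*, a single condition, sequenced as separate libraries, Rep1 and Rep2. The paper's methods describe the donor of the nerves as a 12-year-old male whose eyes were collected postmortem, but the deposited design refers to a pair of macaques, so whether the libraries come from 1 animal or from 2 cannot be told apart.

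Microglia are the resident phagocytes of the central nervous system, and macrophages of a related lineage occupy its borders, in the meninges and around vessels. Both depend on the receptor CSF1R and its ligands CSF1 and IL34, and both are specified by the transcription factor PU.1, encoded by *SPI1*, with IRF8 and RUNX1. Microglia sense their surroundings through receptors such as P2RY12, CX3CR1 and TREM2, the last of which signals through the adaptor TYROBP and the kinase SYK. In the optic nerve these cells survey the axons and glia and take up debris.

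The libraries differed in depth and content, which bears on every level given here. TPM is a share of all length-corrected reads of a library, so levels can be compared between genes. Each library summed to 1000000 TPM. From the whole-number ratios between the libraries, a single read added 17.2 times as much TPM in Rep1 as in Rep2, and 6425 genes were listed at 0 in Rep1 against 2082 in Rep2. Across genes above 0 in both, the median ratio placed Rep1 lower by a log2 shift of -1.19. Markers of the nerve were present in both libraries, with *MBP* of oligodendrocytes at 43721 and 199595 TPM and *GFAP* of astrocytes at 658 and 4331 TPM in Rep1 and Rep2. Retinal markers stood apart in Rep1, where the 8 genes of that list summed to 3325 TPM against 21.1 TPM in Rep2. With 1 condition and 2 libraries, no group could be compared and no p-value was computed. In bulk tissue, fewer cells of a type and less RNA per cell cannot be told apart.

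The microglia and macrophage genes were present at moderate levels, and those that were high in one library were mostly not those that were high in the other. The median of their mean levels was 25.7 TPM, against 9.55 TPM over all genes above 0. Within the libraries the member median was lower, at 8.50 TPM in Rep1 against 3.51 TPM over all genes, and at 15.0 TPM in Rep2 against 11.7 TPM. A mean of 10 TPM or more was reached by 26 of 37 members (70.3%), compared with 49.2% of all genes above 0. In the single libraries, 16 members reached 10 TPM in Rep1 and 22 in Rep2. The shares of all genes were not computed for single libraries. With a median of 11.7 TPM, most genes above 0 reached 10 TPM in Rep2. Above 5 TPM in both libraries stood 17 members (45.9%), compared with 41.4% of all genes above 0. In Rep1, 22 members (59.5%) were at least 2-fold lower on the log2(TPM + 1) scale, where 51.3% of all genes were. At least 2-fold higher values in Rep1 were found for 11 members (29.7%), where 14.8% of all genes were. The remaining 4 members lay within 2-fold. With that shift removed by median-of-ratios scaling, 16 members were at least 2-fold lower, where 33.8% of all genes were, and 14 were at least 2-fold higher, where 23.7% were. The members lower in Rep1 were mainly surface receptors, adaptors and lysosomal genes, and the members higher in Rep1 were mainly transcription factors, cytoskeletal regulators.

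**Figure D1:**
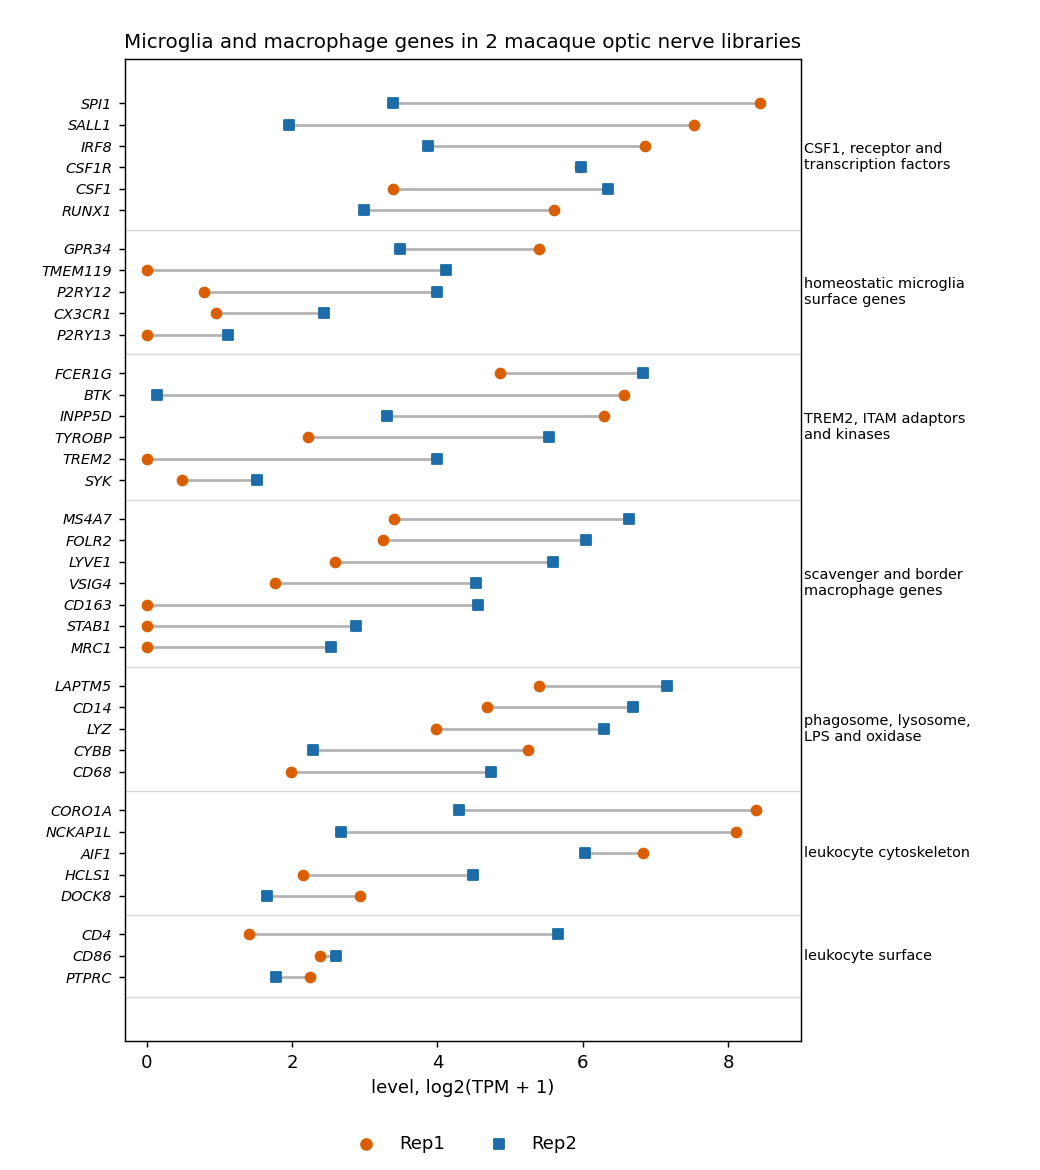
Level of each of the 37 listed members on the log2(TPM + 1) scale, grouped by role and ordered by mean level within each role. Circles are Rep1, squares are Rep2 and the grey line joins them, with the *CSF1R* circle hidden behind its square. All 7 scavenger and border macrophage genes lie lower in Rep1, whereas *SPI1*, *SALL1*, *IRF8* and *RUNX1* lie higher there.

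The order of the members was weakly shared between the libraries. Of 651 pairs of members that were tied in neither library, 362 (55.6%) had the same order in both, compared with 78.2% of such pairs over all genes above 0. Spearman's rho across the 37 members was 0.098, and it was 0.719 across all genes above 0. These are descriptions across genes of the same pair of libraries and not across replicates. Mean levels spanned 0.582 to 177 TPM over the members and 0.00357 to 121658 TPM over all genes above 0. A narrower range can lower both measures, and genes matched in level were not compared. In Rep1 the highest 5 members were *SPI1*, *CORO1A*, *NCKAP1L*, *SALL1* and *IRF8*, and they held 66.1% of the summed member level. In Rep2 the highest 5 were *LAPTM5*, *FCER1G*, *CD14*, *MS4A7* and *CSF1*, which held 44.9%. The libraries had 0 of these 5 in common, and 2 of the highest 10, namely *CSF1R* and *AIF1*.

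**Figure D2:**
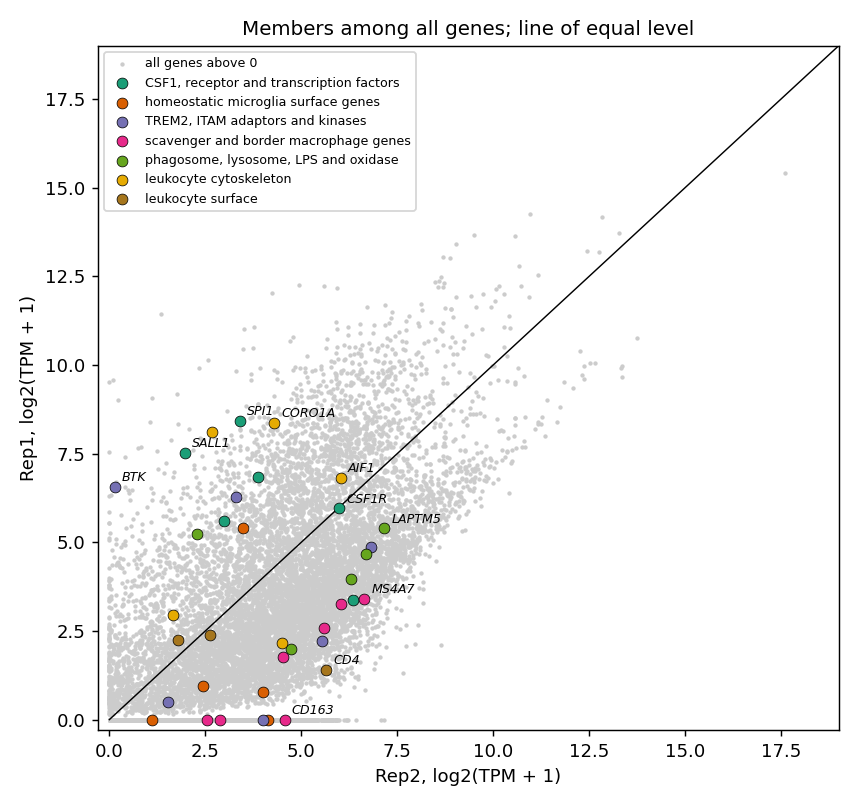
Level in Rep1 against level in Rep2, both as log2(TPM + 1), for all 14693 genes above 0 in at least 1 library (grey) and for the 37 members (coloured by role). The line marks equal levels, on which *CSF1R* lies, with 22 members at least 2-fold below it and 11 at least 2-fold above it.

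*CSF1R*, the receptor tyrosine kinase on which survival of these cells depends, was the member with the closest agreement between the libraries. The gene occupies 147566255 to 147600778 of chromosome 6 (Mmul_10, minus strand). It stood at 61.3 TPM in Rep1 against 62.2 TPM in Rep2, a mean of 61.8 ± 0.640 TPM (SD, n = 2), resting on at least 55 and 959 reads. This placed it at percentile 83.0 of all genes above 0. Relative to the shift between the libraries, the same values stood 1.17 higher in Rep1 on the log2 scale. *AIF1*, which encodes the actin-binding protein Iba1 used to stain microglia, lies on chromosome 4. It was at 113 TPM in Rep1 against 64.5 TPM in Rep2, from at least 13 and 128 reads, a mean of 88.6 ± 34.0 TPM (SD, n = 2). Both genes were thus well above the median gene in each library.

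The ligand and the transcription factors of the lineage moved in opposite directions. *CSF1*, the ligand, was at 9.44 TPM in Rep1 against 80.1 TPM in Rep2, lower in Rep1 by a log2 difference of -2.96. *SPI1* was at 345 TPM in Rep1 against 9.49 TPM in Rep2, from at least 429 and 203 reads, a log2 difference of 5.04. It was the highest member in Rep1 and ranked 23 of 37 in Rep2. *IRF8*, the partner of PU.1, was at 114 TPM in Rep1 against 13.7 TPM in Rep2, from at least 102 and 209 reads. *RUNX1*, a factor of blood and microglial development, was at 47.4 TPM in Rep1 against 6.94 TPM in Rep2. *SALL1*, a zinc finger factor that marks microglia among macrophages but is also made by other cells of neural and kidney origin, was at 184 TPM in Rep1 against 2.89 TPM in Rep2, from at least 415 and 112 reads. All 4 factors were higher in Rep1 as deposited and also after scaling by the median of ratios, where their log2 differences ran from 3.70 to 6.58.

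The median of the 5 homeostatic microglial surface genes was below that of all genes above 0 in each library. It was 0.725 TPM in Rep1 against 3.51 TPM, and 10.2 TPM in Rep2 against 11.7 TPM. Single genes stood above the median of all genes, namely *GPR34* in Rep1 and *TMEM119* and *P2RY12* in Rep2. As deposited, 4 of 5 were at least 2-fold lower in Rep1, where 51.3% of all genes were. With median-of-ratios scaling 2 of 5 were, *TMEM119* and *P2RY12*, where 33.8% of all genes were. *TMEM119*, a membrane protein used to tell microglia from other macrophages, was listed at 0 in Rep1 and at 16.4 TPM in Rep2. *P2RY12*, a receptor for ADP that guides microglial processes, was at 0.725 TPM in Rep1 against 15.0 TPM in Rep2, from at least 1 and 355 reads. *CX3CR1*, the fractalkine receptor, was at 0.947 and 4.45 TPM. *P2RY13*, a second ADP receptor, was listed at 0 in Rep1 and at 1.16 TPM in Rep2. *GPR34*, a receptor for lysophosphatidylserine, ran the other way, with 41.2 TPM in Rep1 against 10.2 TPM in Rep2. Its span overlaps *CASK* on the opposite strand, which was at 202 TPM in Rep1 against 8.56 TPM in Rep2. Whether exons of these genes overlap was not examined, and whether the counting used strand is not stated. The part of *CASK* in the *GPR34* level was not tested. *P2RY12* and *P2RY13* likewise overlap *MED12L*, at 3.96 and 2.23 TPM.

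Genes of the TREM2 pathway differed in both directions. *TREM2*, which binds lipids and lipoproteins, was listed at 0 in Rep1 and at 15.0 TPM in Rep2. *TYROBP*, its ITAM-bearing adaptor also known as DAP12, was at 3.65 TPM in Rep1 against 45.4 TPM in Rep2, from at least 2 and 427 reads. *FCER1G*, the corresponding adaptor of Fc receptors, was at 28.1 TPM in Rep1 against 112 TPM in Rep2, from at least 16 and 1099 reads, and held rank 2 in Rep2. *SYK*, the kinase that binds phosphorylated ITAMs, was at 0.400 and 1.86 TPM. These 4 genes were at least 2-fold lower in Rep1 as deposited, where 51.3% of all genes were. After scaling by the median of ratios only *TREM2* and *TYROBP* of the group were, with *FCER1G* at a log2 difference of -0.79 and *SYK* at -0.48. The phosphatase gene *INPP5D*, encoding the brake SHIP1, was at 77.3 TPM in Rep1 against 8.85 TPM in Rep2. *BTK*, a kinase of B cells and myeloid cells, was at 93.7 TPM in Rep1, from at least 55 reads, and at 0.0992 TPM in Rep2, from at least 1 read. *BTK* had the highest log2 difference of all members, 6.43, and the lowest level of all members in Rep2.

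Scavenger and border macrophage genes were lower in Rep1 in all 7 cases, from -4.56 for *CD163* to -2.54 for *MRC1* on the log2 scale. All 7 were at least 2-fold lower, where 51.3% of all genes were. *MS4A7*, a tetraspan gene of border macrophages, was at 9.61 TPM in Rep1 against 98.6 TPM in Rep2, from at least 7 and 1233 reads. *FOLR2*, a folate receptor, was at 8.50 and 64.8 TPM, and *LYVE1*, a hyaluronan receptor of perivascular macrophages and lymphatic endothelium, at 5.01 and 47.4 TPM. *VSIG4*, a complement receptor, was at 2.39 and 22.2 TPM. The haemoglobin scavenger *CD163* (22.7 TPM), the scavenger *STAB1* (6.39 TPM) and the mannose receptor *MRC1* (4.80 TPM) were above 0 in Rep2 and listed at 0 in Rep1. The group summed to 25.5 TPM in Rep1 against 267 TPM in Rep2, which was 1.35% and 22.4% of the summed member level. After scaling by the median of ratios all 7 were again at least 2-fold lower in Rep1, where 33.8% of all genes were. Their median log2 difference was then -2.06. Markers of meningeal fibroblasts were also at least 2-fold lower in Rep1 in 8 of 8 cases and summed to 1776 TPM in Rep1 against 16083 TPM in Rep2. The same held for 8 of 8 oligodendrocyte markers and 6 of 8 astrocyte markers, so this was not particular to cells of the meninges. After scaling, 7 fibroblast and 7 oligodendrocyte markers were still at least 2-fold lower. The part of any of these cells in this result was not tested. Rep1 was also scaled to optic nerve cell markers, a choice made after seeing the data. The log2 difference was then -0.88 for *MS4A7*, -0.75 for *LYVE1*, -0.71 for *VSIG4* and -0.45 for *FOLR2*, all within 2-fold. Those of *CD163*, *STAB1* and *MRC1* did not change, because a value of 0 stays 0 under any factor.

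Among genes of the phagosome, lysosome and oxidase, 4 of the 5 listed were at least 2-fold lower in Rep1 as deposited, where 51.3% of all genes were. After scaling by the median of ratios 2 of the 5 were, *CD68* and *LYZ*, where 33.8% of all genes were. *LAPTM5*, a lysosomal membrane protein of blood cells, was the highest member in Rep2 at 143 TPM and stood at 41.1 TPM in Rep1, from at least 1191 and 20 reads. *CD14*, the co-receptor for lipopolysaccharide, was at 24.6 and 102 TPM in Rep1 and Rep2. *LYZ*, which encodes lysozyme, was at 14.8 and 77.3 TPM, and *CD68*, a lysosomal glycoprotein, at 2.97 and 25.6 TPM. *CYBB*, the catalytic subunit of the phagocyte NADPH oxidase, differed from these in direction, with 36.9 TPM in Rep1 against 3.89 TPM in Rep2, from at least 16 and 29 reads.

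Leukocyte cytoskeleton genes held some of the highest values in Rep1. *CORO1A*, an actin-binding coronin, was at 332 TPM in Rep1 against 18.7 TPM in Rep2, from at least 127 and 123 reads. *NCKAP1L*, a haematopoietic subunit of the WAVE complex, was at 276 TPM in Rep1 against 5.39 TPM in Rep2, from at least 188 and 63 reads. *DOCK8*, an exchange factor for CDC42, was at 6.68 and 2.15 TPM. *HCLS1*, a cortactin relative, was lower in Rep1, at 3.46 TPM against 21.5 TPM. Of the leukocyte surface genes, *PTPRC*, encoding CD45, was at 3.74 TPM in Rep1 against 2.45 TPM in Rep2, and *CD86*, a co-stimulatory ligand, at 4.22 and 5.11 TPM, both within 2-fold. *CD4*, which macrophages share with helper T cells, was at 1.64 TPM in Rep1 against 49.4 TPM in Rep2, a log2 difference of -4.25. Of the 10 lymphocyte markers, *CD3E* and *MS4A1* were listed at 0 in both libraries, the other 8 were listed at 0 in Rep1, and the list summed to 5.87 TPM in Rep2.

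**Figure D3:**
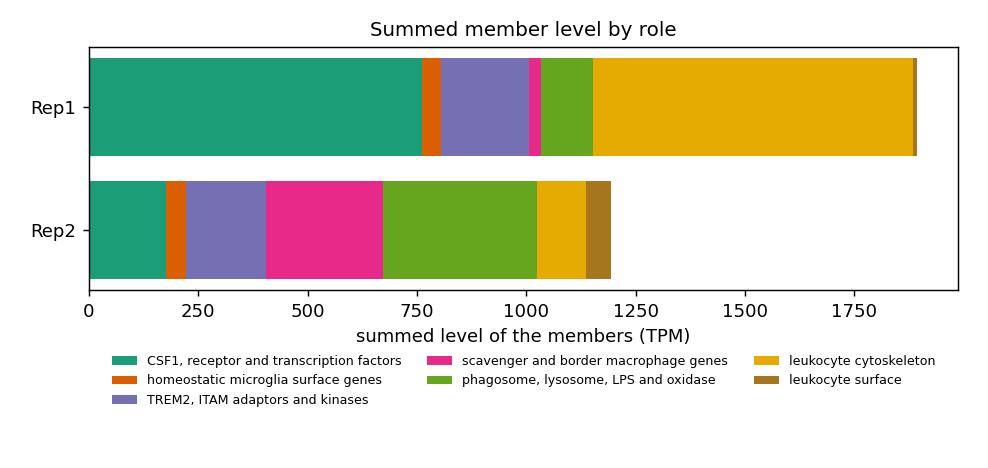
Summed level in TPM of the listed members in each library, stacked by role. The bars total 1894 TPM in Rep1 against 1194 TPM in Rep2, and the lineage and cytoskeleton groups make up 40.2% and 38.6% of the Rep1 bar against 14.7% and 9.41% of the Rep2 bar.

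The members summed to 1894 TPM in Rep1 against 1194 TPM in Rep2. The 11 members at least 2-fold higher in Rep1 contributed 1554 TPM there and 82.3 TPM in Rep2. The 22 members at least 2-fold lower contributed 157 TPM in Rep1 against 977 TPM in Rep2. Since these sets were formed from the differences themselves, the contrast between them is a description.

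The differences were set against the spread between libraries at the same level. The SD of a single library was taken from the differences between the libraries of the 200 genes nearest in mean level. These differences were taken about 0, so the shift of -1.19 between the libraries counts as spread in it. Over the members this SD ran from 0.723 to 2.16 on the log2 scale, with a median of 1.65. The member differences were used as deposited, with the shift not removed, which makes those of members higher in Rep1 smaller. For 33 of 37 members the difference was less than 2 SDs of such a difference, and for 12 it was less than 1 SD. *SPI1*, *NCKAP1L*, *SALL1* and *BTK* (10.8%) exceeded 2 SDs, at 2.38, 2.56, 2.39 and 2.75 SDs, compared with 1.46% of all genes above 0. For 25 members the SD of the deposited TPM was at least as large as the mean. The share over all genes was not computed, so this count does not set the members apart from other genes. In Rep1, 6 members were listed at 0 (16.2%), compared with 30.2% of all genes, and 0 members were listed at 0 in Rep2, compared with 0.619%. Among the 200 genes nearest in Rep2 level, those listed at 0 in Rep1 numbered 20 for *CD163*, 32 each for *TMEM119* and *TREM2*, 55 for *STAB1*, 79 for *MRC1* and 125 for *P2RY13*. A listing at 0 in the shallower library does not show that these transcripts were missing.

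Other genes of the same pathways, which were not among the members, showed both patterns. Of 31 such genes listed, 22 were at least 2-fold lower in Rep1, 4 at least 2-fold higher and 5 within 2-fold, where 51.3% of all genes were lower and 14.8% higher. After scaling by the median of ratios, 16 were lower and 8 higher, where 33.8% and 23.7% of all genes were. All 14 listed genes of the wider microglia signature were at least 2-fold lower in Rep1, with a median log2 difference of -2.44 against -1.07 over all genes above 0. High among them were *OLFML3*, an extracellular protein, at 49.5 and 160 TPM in Rep1 and Rep2, and *C1QB*, a chain of complement C1q, at 30.3 and 173 TPM. After scaling by the median of ratios, 10 of the 14 were still at least 2-fold lower and 0 at least 2-fold higher. Of the 13 genes of CSF1R, TREM2 and ITAM signalling, 6 were at least 2-fold lower in Rep1 and 3 higher, and after scaling 5 were lower and 7 higher. *MEF2C*, a transcription factor of microglia, neurons and muscle, was at 4147 TPM in Rep1 against 18.0 TPM in Rep2, the phosphatase gene *PTPN6* at 223 and 19.5 TPM, and the adaptor gene *GRB2* at 223 and 136 TPM. *IL34*, the second ligand of CSF1R, was listed at 0 in Rep1 and at 47.0 TPM in Rep2, and is named after its value was seen. Of the 4 listed partners of the NADPH oxidase, *RAC2* was at 67.0 and 10.7 TPM, *NCF4* at 5.15 and 11.9 TPM, and *NCF1*, a gene with close pseudogene copies, was listed at 0 in Rep1 and at 5.73 TPM in Rep2.

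**Figure D4:**
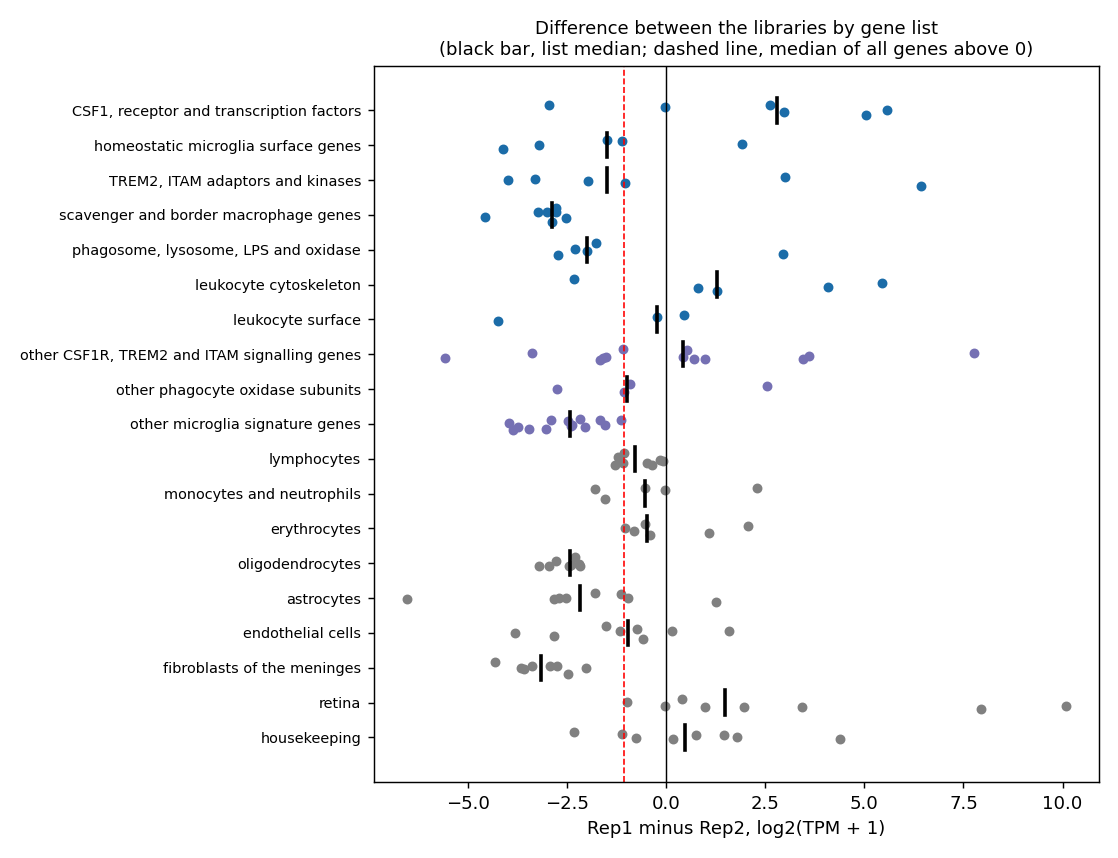
Difference between the libraries (Rep1 minus Rep2, log2(TPM + 1)) for each gene of the member roles (blue), the other pathway lists (purple) and lists of other cells (grey), with 1 point per gene. Black bars are list medians and the dashed line is the median of all genes above 0, -1.07, with the scavenger genes at a median of -2.88 and the lineage genes at 2.79.

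Lists of other cells gave the frame for these differences. The median log2 difference was -1.77 over the members, -2.43 over oligodendrocyte, -2.17 over astrocyte, -0.96 over endothelial and -3.16 over fibroblast markers. It was 1.47 over the retinal and 0.46 over the housekeeping genes. The differences ran from -4.56 to 6.43 over the 37 members and from -7.17 to 10.1 over all genes. In the lists of 8 genes they ran from -3.21 to -2.17 for oligodendrocytes, from -6.55 to 1.26 for astrocytes, from -2.33 to 4.38 for housekeeping genes and from -0.99 to 10.1 for the retina. Of 9 listed markers of monocytes and neutrophils, 4 were at 0 in both libraries and 4 in Rep1 alone, where 30.2% of all genes above 0 were. *CAMP* was at 8.12 TPM in Rep1, the whole sum of the list there, against 0.867 TPM in Rep2, where the list summed to 5.73 TPM. Of the erythrocyte genes, *HBB* was at 4515 TPM in Rep1 against 1087 TPM in Rep2. Of the 8 retinal genes, 4 were at least 2-fold higher in Rep1 and 0 at least 2-fold lower. They and the members higher in Rep1 moved in the same direction, and their relation was not tested. Members at least 2-fold higher in Rep1 had a median longest transcript of 4048 bases and members at least 2-fold lower one of 2700 bases. The same held over all genes, with 3959 and 2864 bases.

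Promoter windows were read because *SPI1*, the gene of PU.1, was the member with the highest mean level and differed most among the lineage factors in absolute level. Windows ran from 250 bases before to 50 bases after the annotated start of each gene in RefSeq on Mmul_10 and were searched on both strands. The purine-rich core GAGGAA, which PU.1 can bind, was found in 19 of 37 member windows (51.4%) and in 26.0% of the windows of all 16267 listed protein-coding genes. The pattern GAANNGAAA, a composite of PU.1 and IRF elements whose first letters can overlap the core, was found in 4 member windows (10.8%) and in 7.05% of all. *TREM2*, *CYBB* and *CSF1* held both. The core was present in 4 of the 11 members higher in Rep1 and in 14 of the 22 members lower in Rep1, and a match is not a site of binding. The *CSF1R* window held neither, which says only that these letters are not in it. The windows are shown for *TREM2* and *CYBB*, where the patterns overlap, and for *AIF1*, which held 3 copies of the core. Each is printed to 20 bases after the start, with the patterns in capitals. They lie at chr4:128214430-128214699 on the plus strand for *TREM2*, chrX:37571351-37571620 on the plus strand for *CYBB* and chr4:137891677-137891946 on the minus strand for *AIF1*.
TREM2: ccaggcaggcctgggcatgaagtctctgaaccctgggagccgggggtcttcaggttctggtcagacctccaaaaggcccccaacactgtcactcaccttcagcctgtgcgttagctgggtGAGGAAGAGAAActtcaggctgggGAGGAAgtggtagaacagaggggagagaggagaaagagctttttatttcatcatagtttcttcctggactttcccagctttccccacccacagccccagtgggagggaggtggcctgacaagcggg
CYBB: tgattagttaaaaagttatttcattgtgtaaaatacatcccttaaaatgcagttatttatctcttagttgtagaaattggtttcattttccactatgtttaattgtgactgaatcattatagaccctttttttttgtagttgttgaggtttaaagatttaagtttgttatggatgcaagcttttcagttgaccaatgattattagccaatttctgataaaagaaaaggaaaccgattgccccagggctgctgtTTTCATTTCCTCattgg
AIF1: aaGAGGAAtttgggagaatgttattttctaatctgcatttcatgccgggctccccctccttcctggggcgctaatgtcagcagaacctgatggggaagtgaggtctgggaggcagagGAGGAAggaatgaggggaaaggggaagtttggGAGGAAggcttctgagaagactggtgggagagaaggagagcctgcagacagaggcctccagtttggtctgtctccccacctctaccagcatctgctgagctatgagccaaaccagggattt

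In *TREM2* the core began at positions -130 and -106 from the start, and in *CYBB* both patterns were on the reverse strand just after it. *TREM2* was listed at 0 in Rep1 and *CYBB* was higher in Rep1.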

How the data were processed

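Bulk RNA-seq libraries of total RNA from 2 optic nerves had been prepared with the low-input SMARTer v4 kit. According to the submitters' processing notes and the paper, the authors checked reads with FastQC 0.11.9, trimmed them with Trim Galore 0.6.6, mapped them to Mmul_10 with STAR 2.7.1a and counted them with featureCounts 1.5.3. The authors then converted counts to TPM, which is the unit of the deposited values, and libraries were not pooled. The gene lengths, the use of strand and the handling of reads with several alignments are not given in the sources used here. The columns Rep1 and Rep2 are not tied to individual samples and served as replicates of the condition, and nothing beyond the labels says that they are separate animals.

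The analysis used Python 3.11 with numpy 2.4.6, pandas 2.3.3, scipy 1.17.1 and matplotlib 3.10.9. A pseudocount of 1 was added before taking log2, and fold changes on that scale are too small for low genes. The members and lists were chosen with earlier results of these data known, and every listed member is named, together with the 3 highest genes of each other pathway list and the 2 highest genes of other lists used. *IL34*, *CASK*, *MED12L*, *CD3E*, *MS4A1*, *CAMP* and *HBB* were named after their values were seen. A named gene and a sequence are not reported here. Read numbers are the smallest whole numbers that fit the ratio of a gene's values, within a relative tolerance of 1e-12, and are lower bounds. Whole numbers with a product under 100000000 fitted 99.9% of the 10168 genes above 0 in both libraries, and 5.98% after the constant was moved by 1 part in 10000. The methods were tested on simulated data. Coordinates, transcripts and sequences came from the RefSeq annotation and genome of Mmul_10. Of the members, 13 overlap another annotated gene, 11 of them on the opposite strand, *SPI1* and *STAB1* included. These are overlaps of whole gene spans, and overlap of exons was not examined.

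Alternatives were other scalings, a pseudocount of 0.1, leaving out the 10 most abundant genes, protein-coding genes only, a geometric mean, members with a mean of at least 1 TPM, and single libraries. Scaling Rep1 to optic nerve cell markers was added after seeing the data. TPM gives no counting interval or detection limit, and the absolute depth is unknown.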

Additional observations from a re-analysis of the deposited data

How the results depend on the processing

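No paired analysis was possible because both libraries belong to 1 condition. Scaling by the median of ratios moved the members' median log2 difference from -1.77 to -0.79 and left 16 members at least 2-fold lower and 14 higher in Rep1. Scaling Rep1 by 5.53 to 32 optic nerve cell markers of Rep2, chosen after seeing the data, turned that median to 0.20, gave 9 members lower and 15 higher, and raised the median level to 55.9 TPM and the sum of means to 5835 TPM. Those 9 include the 6 members listed at 0 in Rep1, whose values no factor can change. Under this scaling the list medians also changed sign for the TREM2 group (0.32) and the phagosome group (0.41). They did so as well for the leukocyte surface group (1.99) and other oxidase subunits (0.14). Those of oligodendrocytes (0.033) and endothelial cells (1.05) did so too, but these markers are among those that set the factor. Their medians are therefore not independent of this scaling. Under the median of ratios only the leukocyte surface group changed sign (0.75). The median level was 32.6 TPM without the 10 most abundant genes, which takes *MBP* out of the total. With the geometric mean the median level was 13.7 TPM and the sum of means 882 TPM, against 1544 TPM, because low values weigh more in it. In the single libraries, the median level ran from 8.50 to 15.0 TPM, below the median of the means, because different members are high in each, and the members at 10 TPM or more from 16 to 22. A pseudocount of 0.1, the filter on the mean and protein-coding genes alone left each count over the members within 1.5 times its value. Of 259 other values of single member means, 238 stayed within 1 SD and 21 moved beyond it, but each of 2 libraries always lies within 1 SD of their mean. Depth limits the low members in Rep1.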
